A study of Caenorhabditis elegans with 16 samples.

Results

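RNA polymerase occupancy was compared between the hypodermis and the intestine of baf-1(G12T) larvae, so that every value below asks which tissue differences were present in the mutant. The comparison joins the gene scores of the baf-1(G12T) hypodermis with those of the baf-1(G12T) intestine by gene name. It rests on 8 of the 16 libraries of the series and covers all 19974 named genes, after 11 rows that carry no gene name were left out. The study used RNA polymerase DamID (RAPID) in wild-type and baf-1(G12T) Caenorhabditis elegans to ask how a mutation in the chromatin protein BAF-1 changes transcription in each tissue. BAF-1, barrier-to-autointegration factor, binds DNA and lamina proteins, and the G12T change is the worm model of the substitution behind Nestor-Guillermo progeria syndrome.

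All baf-1(G12T) animals carried the allele baf-1(bq19[G12T]) on chromosome III. The hypodermis was represented by strain BN1416, with a Dam::RPB-6 transgene (bqSi1411), and strain BN1048, with a GFP::Dam transgene (bqSi447), both with dpy-7p::FLP (bqSi548). The intestine was represented by strain BN1417 (Dam::RPB-6) and strain BN1053 (GFP::Dam), both with nhx-2p::FLP::SL2::mNG (bqSi997). The wild-type strains were built in the same way without the baf-1 allele, with BN1414 and BN561 for the hypodermis and BN1415 and BN1051 for the intestine. Each Dam construct was inserted on chromosome II behind the hsp16.41 promoter and an mCh::his-58 cassette flanked by FRT sites. The cassette is excised only where the FLP recombinase is made, so the tissue sampled is set by the promoter that drives FLP. Larvae grew for 48 h at 20 °C on a dam-negative Escherichia coli strain, GM119, and were collected at the L4 stage as pools of 4000 animals with no heat shock stated for the collection.

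In RAPID, the RNA polymerase II subunit RPB-6 carries the Escherichia coli Dam methyltransferase, which methylates GATC sites close to where the polymerase sits. Free GFP::Dam methylates open chromatin and serves as the reference. The hypodermis is the epithelium that secretes the collagen cuticle and anchors it to the body muscle, and the intestine is the digestive and storage organ that takes up food, acidifies its lumen and makes yolk proteins for the oocytes. Both tissues rely on GATA transcription factors, ELT-1 and ELT-3 in the hypodermis and ELT-2 and ELT-7 in the intestine.

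The value given for a gene is its score, log2(Dam::RPB-6/GFP::Dam) over the GATC fragments of the gene, and a gene was called expressed where the false discovery rate (FDR) deposited with the score was under 0.05. Differences are the hypodermis score minus the intestine score, so a positive value is higher in the hypodermis. A gene was counted as different where it was called in at least 1 of the 2 tissues and its scores lay more than 1 apart. The tables hold 1 score per gene, tissue and genotype although 2 replicates were made per strain, so no difference here has a replicate error or a test. A bulk score cannot tell methylation in fewer cells from less methylation per cell, and the sequencing depth behind each score is unknown from the tables. The read counts listed by the study for the baf-1(G12T) Dam::RPB-6 libraries placed 1 hypodermis library far below and the other far above both intestine libraries in reads at GATC sites, and the part of this gap in the scores was not tested.

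In the baf-1(G12T) hypodermis 1504 of 19974 genes (7.53%) were called expressed, against 2103 (10.5%) in the baf-1(G12T) intestine. The calls overlapped in 428 genes, which were 28.5% of the hypodermis calls and 20.4% of the intestine calls. Another 1076 genes were called in the hypodermis and not in the intestine, 1675 in the intestine and not in the hypodermis, and 16795 in neither. The lowest called score was 0.16 in the hypodermis and 0.05 in the intestine. With a score above 0.2 also required, 1469 calls remained in the hypodermis and 1501 in the intestine, so most of the excess of intestine calls had low scores. The hypodermis scores were spread more widely, with an SD over all genes of 0.30, against 0.20 in the intestine. Called genes had a median score of 0.54 in the hypodermis and 0.28 in the intestine. Over all named genes the median difference was 0.01, and over the 3179 genes called in either tissue it was -0.10.

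A total of 303 of those 3179 genes (9.53%) scored higher in the hypodermis past 1, and 96 (3.02%) scored higher in the intestine past 1. The 303 genes had median scores of 1.35 in the hypodermis and -0.07 in the intestine, and 267 of them were called in the hypodermis alone. The 96 genes had median scores of -0.37 in the hypodermis and 0.81 in the intestine, and 94 of them were called in the intestine alone. The division between the tissues depended on the scale of the scores. When the scores of the 2 tissues were given the same distribution by quantile normalization, 187 genes were higher in the hypodermis and 204 in the intestine. When each tissue was divided by its SD instead, the counts were 231 and 146. At the threshold, memo-1 had a difference of 1.0003 and wrm-1 one of 0.9991, while lap-2 had one of -1.0013 and T07D4.5 one of -0.9985.

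**Figure D1:**
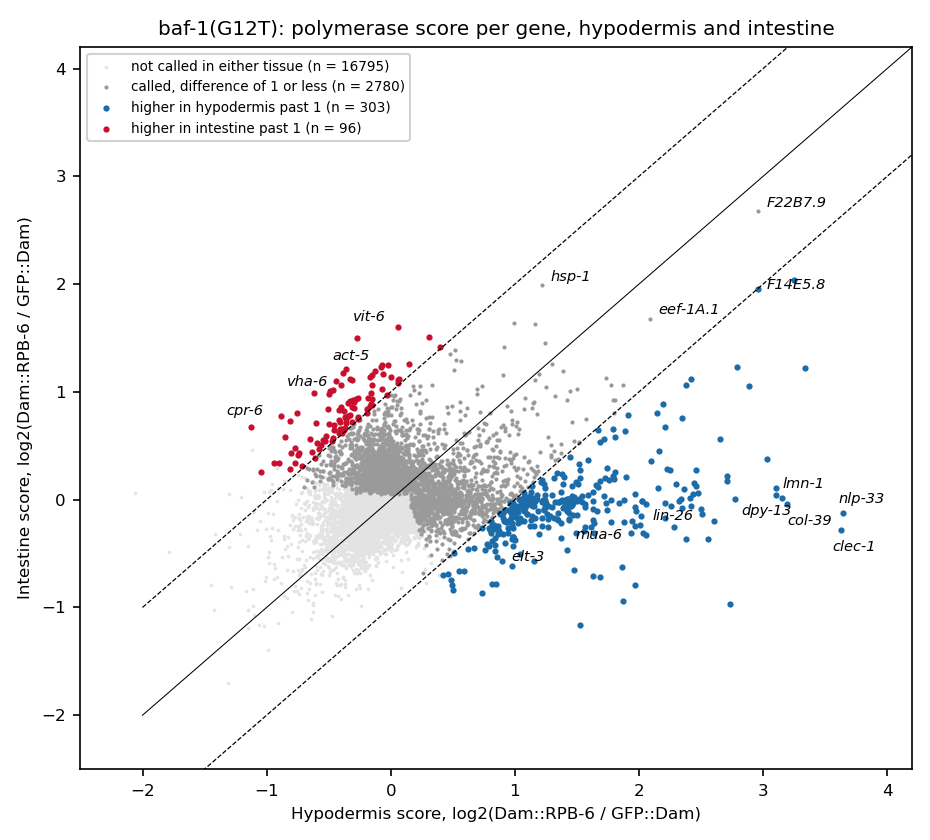
Score of each of the 19974 genes in the baf-1(G12T) hypodermis (horizontal axis) and intestine (vertical axis), both as log2(Dam::RPB-6/GFP::Dam). The solid line marks equal scores and the dashed lines a difference of 1. The 303 genes past 1 in the hypodermis mostly lie close to an intestine score of 0, and genes that score high in both tissues, such as F22B7.9 and eef-1A.1, are few.

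The tissue labels were first held against marker genes. The intermediate filament gene mua-6 had a score of 1.44 in the hypodermis and -0.19 in the intestine. The zinc finger gene lin-26, which specifies epithelial fate, scored 2.06 in the hypodermis and -0.04 in the intestine. The cuticle collagen gene dpy-13 scored 2.78 in the hypodermis and 0.01 in the intestine. The GATA factor gene elt-3 scored 0.92 in the hypodermis and -0.40 in the intestine. All 4 genes were called in the hypodermis and not in the intestine, with differences between 1.32 and 2.77. Of the 16 hypodermis markers, 8 were called in the hypodermis and 2 in the intestine, and 6 were past 1 toward the hypodermis. The matrilin-type receptor gene mup-4 (1.16 in the hypodermis, -0.25 in the intestine) and the collagen gene rol-6 (1.36 in the hypodermis, -0.02 in the intestine) were the others past 1. The remaining markers included genes near 0 in both tissues, among them dpy-7, whose promoter drives FLP in the hypodermis and which scored 0.03 in the hypodermis and -0.04 in the intestine.

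Of the 16 intestine markers, 1 was called in the hypodermis and 8 in the intestine, and 4 were past 1 toward the intestine. The cathepsin B-like protease gene cpr-6 scored -1.12 in the hypodermis and 0.67 in the intestine. The apical V-ATPase subunit gene vha-6 scored -0.50 in the hypodermis and 0.98 in the intestine. The microvillar actin gene act-5 (-0.07 in the hypodermis, 1.25 in the intestine) and the aspartic protease gene asp-1 (-0.13 in the hypodermis, 1.20 in the intestine) each differed by -1.32. The exception was the gut filament gene ifc-2, which was called in the hypodermis at 0.21 and had -0.03 in the intestine. The gut GATA factor gene elt-2 was not called in either tissue, with -0.18 in the hypodermis and -0.08 in the intestine. The called markers thus matched their labelled tissues, apart from ifc-2 among the intestine markers and bli-1 and vab-10, 2 hypodermis markers that were called in the intestine.

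**Figure D2:**
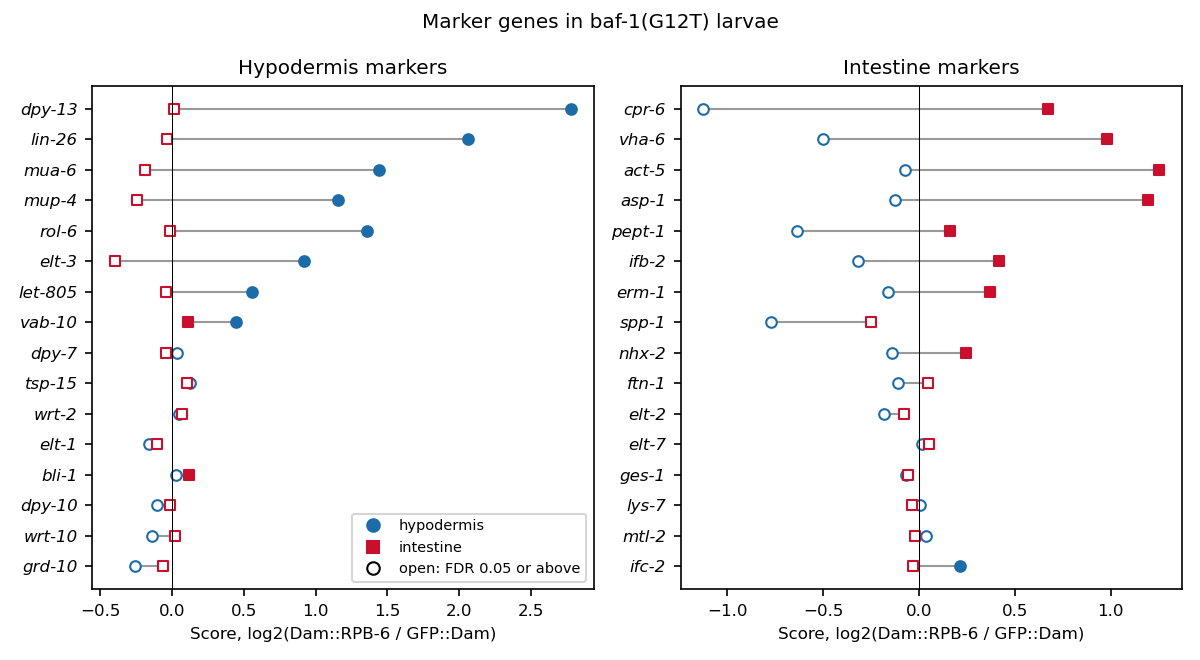
Scores of 16 hypodermis and 16 intestine marker genes in baf-1(G12T) larvae, as log2 ratios of Dam::RPB-6 to GFP::Dam, with circles for the hypodermis, squares for the intestine and filled symbols for genes called expressed. The separation is carried by part of each list, with dpy-13 at 2.78 in the hypodermis and 0.01 in the intestine, and about as many markers lie near 0 in both tissues.

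Among markers of other cell types the highest score was 0.35, in the intestine, and most were not called in either tissue. None of 12 germ line, 5 pharynx and 2 coelomocyte markers was called in either tissue. Body muscle markers were called for 0 of 8 genes in the hypodermis and 2 of 8 in the intestine, the troponin gene mup-2 (-0.04 in the hypodermis, 0.35 in the intestine) and the paramyosin gene unc-15 (-0.02 in the hypodermis, 0.08 in the intestine). Neuronal markers were called for 1 of 16 genes in the hypodermis and 3 of 16 in the intestine, of which the kinesin gene unc-104, called in both, was the only one in the hypodermis at 0.24. In the intestine the called shares of the body muscle and neuronal lists both lay above the 10.5% of all genes. In the hypodermis both lay below the 7.53% of all genes. The lists are short, and the part of these other cell types in the scores was not tested.

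Among the genes higher in the hypodermis with at least 4 GATC fragments, the C-type lectin gene clec-1 had the largest difference, 3.91, with scores of 3.63 in the hypodermis and -0.28 in the intestine. The next were Y40C7B.4 at 3.70, col-39 at 3.24 and Y105C5B.9 at 3.14. Y40C7B.4 combined a high hypodermis score of 2.74 with a low intestine score of -0.97, whereas Y105C5B.9 was near 0 in the intestine at 0.01. The lamin gene lmn-1 followed at 3.06, with a score of 3.11 over 17 fragments in the hypodermis and 0.05 in the intestine. The other 5 of the leading 10 were phf-30, ZK1307.3, C29E4.9, dpy-13 and F54H5.5, with differences from 2.76 to 2.92. Among genes with fewer fragments, nlp-33, which encodes a neuropeptide-like antimicrobial peptide of the epidermis, differed by 3.77 over 3 fragments.

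Among the genes higher in the intestine with at least 4 fragments, cpr-6 had the largest difference, -1.79. The multiprotein bridging factor gene mbf-1, a transcriptional coactivator, followed at -1.77, with -0.27 in the hypodermis and 1.50 in the intestine. The list went on with K09F6.13, papl-1, umps-1, vha-4, lec-6, vit-6, dct-16 and fkb-6, with differences from -1.66 to -1.50. The gene umps-1, which encodes uridine monophosphate synthetase of pyrimidine synthesis, scored -0.36 in the hypodermis and 1.22 in the intestine. The galectin gene lec-6 scored -0.75 in the hypodermis and 0.81 in the intestine. In 89 of the 96 genes the hypodermis score was below 0, and in 208 of the 303 hypodermis genes the intestine score was below 0. The median score over all genes was itself below 0, at -0.02 in each tissue, so a score below 0 is common. For the 303 genes the median intestine score of -0.07 lay near that of all genes, and for the 96 the median hypodermis score was -0.37.

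GATA factors bind short sites in the promoters of both tissues, and the promoters with the most matches among the leading genes are shown here so that these sites can be seen. Each is the strand of the gene from 250 bases before to 50 bases after the annotated start in Ensembl release 115, read from the WBcel235 genome. Capitals mark TGATAA or GATAAG read on either strand (TTATCA and CTTATC on the printed strand), 2 motifs that overlap where TGATAAG occurs. For the hypodermis, the windows are Y40C7B.4 on the minus strand at chrX:17256738-17257037 and nspe-1, a nematode-specific peptide gene, on the minus strand at chrII:12620815-12621114.
Y40C7B.4: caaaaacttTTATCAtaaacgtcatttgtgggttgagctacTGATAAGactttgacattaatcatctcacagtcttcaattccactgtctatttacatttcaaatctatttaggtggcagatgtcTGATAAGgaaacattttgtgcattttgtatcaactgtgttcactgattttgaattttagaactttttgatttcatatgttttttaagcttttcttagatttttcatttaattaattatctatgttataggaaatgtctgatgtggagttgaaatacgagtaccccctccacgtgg
nspe-1: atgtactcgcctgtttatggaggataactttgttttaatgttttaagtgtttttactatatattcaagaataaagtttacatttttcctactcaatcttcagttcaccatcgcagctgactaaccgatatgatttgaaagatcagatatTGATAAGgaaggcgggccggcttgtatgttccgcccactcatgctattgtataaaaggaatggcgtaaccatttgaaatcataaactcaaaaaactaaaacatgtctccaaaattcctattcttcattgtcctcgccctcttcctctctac
For the intestine, the windows are umps-1 on the minus strand at chrIII:10357599-10357898, cpr-6 on the plus strand at chrX:6606957-6607256, lec-6 on the minus strand at chrIII:600317-600616 and vit-6 on the plus strand at chrIV:8260907-8261206.
umps-1: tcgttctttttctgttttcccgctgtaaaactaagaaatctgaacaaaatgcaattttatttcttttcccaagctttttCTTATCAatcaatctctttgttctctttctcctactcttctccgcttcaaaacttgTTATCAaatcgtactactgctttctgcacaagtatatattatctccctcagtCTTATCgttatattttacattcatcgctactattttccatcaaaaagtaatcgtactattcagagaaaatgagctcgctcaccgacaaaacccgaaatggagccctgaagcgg
cpr-6: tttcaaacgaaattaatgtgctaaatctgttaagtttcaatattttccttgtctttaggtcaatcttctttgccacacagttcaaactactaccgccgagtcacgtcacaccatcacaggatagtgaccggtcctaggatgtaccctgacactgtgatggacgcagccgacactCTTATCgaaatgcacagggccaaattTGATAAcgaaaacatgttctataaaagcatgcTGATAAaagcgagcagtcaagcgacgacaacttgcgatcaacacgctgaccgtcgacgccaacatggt
lec-6: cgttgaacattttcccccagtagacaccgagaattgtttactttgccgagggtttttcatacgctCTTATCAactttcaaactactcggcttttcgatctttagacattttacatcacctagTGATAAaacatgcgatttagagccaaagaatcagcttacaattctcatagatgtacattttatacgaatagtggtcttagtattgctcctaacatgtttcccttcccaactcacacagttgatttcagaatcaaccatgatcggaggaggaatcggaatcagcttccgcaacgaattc
vit-6: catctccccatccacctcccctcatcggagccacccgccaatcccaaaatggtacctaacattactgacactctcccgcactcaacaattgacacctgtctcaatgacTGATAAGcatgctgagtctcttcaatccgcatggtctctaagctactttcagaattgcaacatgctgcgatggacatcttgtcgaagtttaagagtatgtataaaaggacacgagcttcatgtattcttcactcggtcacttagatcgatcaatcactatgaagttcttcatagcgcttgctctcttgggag

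In the cpr-6 window, TGATAA begins at positions -50 and -18 relative to the annotated start. These promoters were picked for their matches, so the share over each whole list is what describes it. TGATAA was present in 97 of 299 promoters (32.4%) of genes higher in the hypodermis, 35 of 94 (37.2%) of genes higher in the intestine and 5841 of 19406 (30.1%) of all placed genes. GATAAG was present in 50 of 299 (16.7%), 25 of 94 (26.6%) and 3228 of 19406 (16.6%) of the same promoters. For the hypodermis list both shares lay near those of all genes, and for the intestine list GATAAG was more frequent. The GATAAG share was also above that of all genes in called genes not past 1 (19.7%) and in genes called in the intestine alone (21.9%). None of these differences was tested. A match is a short run of letters and not evidence of binding.

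Of the gene lists examined, cuticle collagens had the most members past 1. They are secreted by the hypodermis in timed waves for each new cuticle. Over all genes, 7.53% were called in the hypodermis and 10.5% in the intestine, the shares beside which each list is read. Of 174 collagen genes in the table, 34 (19.5%) were called in the hypodermis and 14 (8.05%) in the intestine. Past 1 were 21 toward the hypodermis and 0 toward the intestine. The median difference over all 174 was 0.05, near that of all genes. Over the 43 called members it was 0.87, but most of these entered by a call in the hypodermis. A positive median among them is therefore partly set by the selection. After col-39 (3.19 in the hypodermis, -0.04 in the intestine) and dpy-13 came rol-8 (1.94 in the hypodermis, -0.31 in the intestine), dpy-5 (2.30 in the hypodermis, 0.15 in the intestine) and col-79 (1.97 in the hypodermis, -0.07 in the intestine). Several of these genes lie side by side. On chromosome II, dph-2, which is not a collagen gene, col-79, col-39 and col-80 followed one another by start position between 10702510 and 10714297. They differed by 1.18, 2.04, 3.24 and 1.51. The hypodermis marker bli-1 lies inside that interval, from 10708960 to 10712156, differed by -0.09 and was called in the intestine alone. How far the scores in this interval rest on shared GATC fragments was not tested. On chromosome V, col-144, col-145 and col-10 between 9159586 and 9165307 differed by 1.51, 1.20 and 1.51. In contrast, the 6 annular furrow collagens, a group that includes dpy-7 and dpy-10, were called in neither tissue. Their differences ran from -0.10 to 0.17. In wild type, 4 of the 6 were called in the hypodermis and 0 in the intestine, with a median difference of 0.51, and this contrast was not tested.

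Several other groups of cuticle and epidermis genes also held more calls in the hypodermis, most with differences under 1, while the cuticlin family was divided. All 8 genes of the hemidesmosomes, which link cuticle to muscle, and their filaments had positive differences, from 0.11 to 1.63, with 7 called in the hypodermis and 2 in the intestine. The members mua-6 and mup-4 were past 1. The myotactin gene let-805, measured over 128 fragments, had 0.55 in the hypodermis and -0.05 in the intestine, and the spectraplakin gene vab-10, over 247 fragments, had 0.44 in the hypodermis and 0.11 in the intestine. Of 10 collagen processing enzymes, 5 were called in the hypodermis and 2 in the intestine, and none was past 1. The peroxidase gene mlt-7 (0.48 in the hypodermis, -0.04 in the intestine) and the protein disulfide isomerase gene pdi-2 (0.82 in the hypodermis, 0.46 in the intestine) were examples. Of 22 molting genes, 6 (27.3%) were called in the hypodermis and 1 (4.55%) in the intestine. They were led by the lipoprotein receptor gene lrp-1 (0.64 in the hypodermis, -0.15 in the intestine, 100 fragments). Of 19 epidermal antimicrobial peptide genes, nlp-33 and nlp-31 (10.5%, against 7.53% of all genes) were called, both in the hypodermis alone, and both were past 1. They rest on 3 and 2 fragments, and the median of the list was 2 fragments. The 37 genes of the cuticlin family, proteins of the cuticle and its ridges, were divided. In each tissue 4 (10.8%) were called, and in the intestine this was near the share of all genes. There were 20 differences above 0 and 17 below, with a median of 0.01. Past 1 were 1 gene toward the hypodermis, noah-1 (0.975 in the hypodermis, -0.104 in the intestine, 21 fragments), and 0 toward the intestine. In the same family cutl-10 (-0.22 in the hypodermis, 0.56 in the intestine) and cutl-16 (-0.41 in the hypodermis, 0.24 in the intestine) were called in the intestine alone.

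Of the 9 hypodermal fate factors, 4 were called in the hypodermis and 0 in the intestine. Besides lin-26 and elt-3 these were the nuclear receptor gene nhr-25 (0.47 in the hypodermis, -0.17 in the intestine) and the Grainyhead gene grh-1 (0.22 in the hypodermis, -0.01 in the intestine). The early regulator gene elt-1 scored -0.16 in the hypodermis and -0.11 in the intestine. None of the 5 gut GATA factor genes was called in either tissue. Outside these regulators, the fatty acid synthase gene fasn-1 had 1.84 over 60 fragments in the hypodermis and -0.03 in the intestine.

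The yolk genes were higher in the intestine, and the genes of digestion mostly so, apart from the aspartic proteases, which were divided. Of the 6 vitellogenin genes, which encode yolk proteins, 0 were called in the hypodermis and all 6 in the intestine, and their differences ran from -1.54 to -0.10 with a median of -0.55. The largest were vit-6 (0.06 in the hypodermis, 1.60 in the intestine, 30 fragments) and vit-2 (-0.08 in the hypodermis, 1.23 in the intestine, 31 fragments). The genes vit-3, vit-4 and vit-5 are near-identical copies, and how reads shared by them were counted is uncertain. Of 11 cathepsin-type cysteine protease genes, 2 (18.2%) were called in the hypodermis and 7 (63.6%) in the intestine. There were 7 differences below 0 and 4 above, with a median of -0.52. Apart from cpr-6, cpr-4 was past 1, with -0.33 in the hypodermis and 0.91 in the intestine. The cathepsin L gene cpl-1 went the other way, with 0.90 in the hypodermis and 0.27 in the intestine. Of 17 aspartic protease genes, 4 (23.5%) were called in the hypodermis and 8 (47.1%) in the intestine, and asp-1 was the member past 1. Their differences were above 0 in 9 genes and below 0 in 8, with a median of 0.05. The genes asp-12 (1.33 in the hypodermis, 0.37 in the intestine) and asp-5 (0.51 in the hypodermis, -0.07 in the intestine) were higher in the hypodermis. Among 10 genes of the brush border and its filaments, 1 was called in the hypodermis and 6 in the intestine, with a median difference of -0.52 and the filament gene ifb-2 at -0.32 in the hypodermis and 0.42 in the intestine.

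The proton pump and the proteasome leaned to the intestine as well. Of 21 V-ATPase subunit genes, 6 (28.6%) were called in the hypodermis and 14 (66.7%) in the intestine. Both shares lay above the 7.53% and 10.5% of all genes. The subunit genes had a median difference of -0.24 (-0.49 under quantile normalization), and vha-4, vha-6 and vha-1 were past 1. The gene vha-4, a membrane-sector subunit, scored -0.38 in the hypodermis and 1.18 in the intestine. Of 33 proteasome subunit genes, 2 (6.06%) were called in the hypodermis and 19 (57.6%) in the intestine. Past 1 toward the intestine were 3 of them: pbs-5, pas-2 and pbs-4. Their median difference was -0.25. Of the 7 constitutive chaperone genes, 5 (71.4%) were called in the hypodermis and all 7 in the intestine, both above the shares of all genes. Their median difference of -0.77 became -1.32 under quantile normalization. The Hsp70 gene hsp-1 scored 1.22 in the hypodermis and 1.99 in the intestine, and the Hsp90 gene hsp-90 had 0.51 in the hypodermis and 1.38 in the intestine. The iron storage gene ftn-2, a ferritin, scored -0.33 in the hypodermis and 1.12 in the intestine over 4 fragments.

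Cytosolic ribosomal protein genes were divided. Of 83 genes, 28 (33.7%) were called in the hypodermis and 51 (61.4%) in the intestine, both above the shares of all genes. Past 1 were 9 toward the hypodermis and 6 toward the intestine. The median difference of -0.11 was lower than the 0.01 of all genes. The genes rpl-43 (2.48 in the hypodermis, 0.06 in the intestine), rpl-1 (2.65 in the hypodermis, 0.56 in the intestine) and rpl-10 (2.79 in the hypodermis, 1.24 in the intestine) were on the hypodermis side. On the intestine side, rps-16 had -0.44 in the hypodermis and 1.10 in the intestine, and rps-0 had -0.78 in the hypodermis and 0.48 in the intestine. These genes are short, with a median of 4 fragments, and the number of fragments moves with the share of called genes past 1. Under quantile normalization rpl-10 and rpl-30 fell to differences of 0.23 and 0.66, no longer past 1. The elongation factor gene eef-1A.1 was among the genes high in both tissues, at 2.09 in the hypodermis and 1.68 in the intestine. Its near-identical copy eef-1A.2 scored 2.89 in the hypodermis and 1.05 in the intestine, a difference of 1.84 that became 0.60 under quantile normalization, and the assignment of reads between the copies is uncertain.

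The genes called in both tissues with the highest lower score were F22B7.9 (2.96 in the hypodermis, 2.68 in the intestine), F21C3.7 (3.25 in the hypodermis, 2.04 in the intestine), F14E5.8 (2.96 in the hypodermis, 1.95 in the intestine), eef-1A.1 and the histone variant H2A.Z gene htz-1 (1.30 in the hypodermis, 1.26 in the intestine). The neighbours of F14E5.8 on chromosome II were lower, with F14E5.1 at 0.69 in the hypodermis and 0.98 in the intestine and F14E5.2 at -0.13 in the hypodermis and -0.15 in the intestine. Although F14E5.8 and F21C3.7 counted as higher in the hypodermis by 1.01 and 1.21, the sign of both differences turned under quantile normalization.

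BAF-1 acts with lamin and LEM-domain proteins at the nuclear envelope, so those genes were read together. The mutated gene baf-1 itself was called in both tissues, with 0.72 in the hypodermis and 0.82 in the intestine. Beside lmn-1, the emerin gene emr-1 was past 1, at 2.38 in the hypodermis and 1.06 in the intestine, although its difference of 1.32 became 0.17 under quantile normalization. The LEM-domain gene lem-2 scored 0.93 in the hypodermis and 0.17 in the intestine. Of 11 genes of the lamina and the nucleus-cytoskeleton bridge, 5 (45.5%) were called in the hypodermis and 4 (36.4%) in the intestine. Both shares lay above those of all genes, and the median difference was 0.04. The gene rpb-6, a copy of which is in the transgene, was called in neither tissue, at 0.20 in the hypodermis and 0.14 in the intestine.

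Among called genes, the share past 1 toward the hypodermis was lower where a gene had more GATC fragments. Toward the hypodermis it was 71.4% of 21 called genes with 1 fragment, 27.6% of 170 with 2 to 3, 15.8% of 803 with 4 to 7, 7.18% of 1156 with 8 to 15 and 3.01% of 1029 with 16 or more. Toward the intestine it was 4.76%, 7.65%, 4.73%, 3.29% and 0.583% of the same genes. Genes past 1 toward the hypodermis had a median of 6 fragments and those past 1 toward the intestine 7, against 12 in the other called genes. At 8 fragments or more, 114 genes were past 1 toward the hypodermis and 44 toward the intestine. On 1 fragment his-35 at 1.08 had an FDR of 0.035 in the hypodermis, while on 34 fragments grh-1 at 0.22 had one of 0.013. A call on few fragments thus took a high score, so the share among called genes partly follows the call itself. Over all genes, called or not, the SD of the difference lay between 0.273 and 0.345 in every class.

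**Figure D3:**
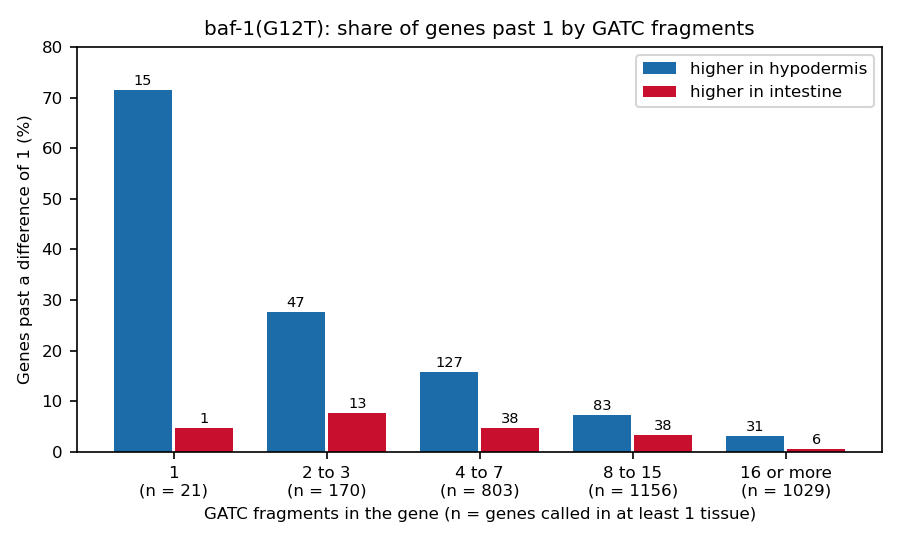
Percent of genes called in at least 1 baf-1(G12T) tissue that were past a difference of 1, by the number of GATC fragments in the gene, with the number of genes above each bar. The share higher in the hypodermis declines from 71.4% of called genes with 1 fragment to 3.01% of those with 16 or more. A call on few fragments takes a higher score, so the shares partly follow the call.

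The position of the genes was examined next, with no test. Of the 303 genes, 53 (17.5%) had an adjacent gene that was also past 1 toward the hypodermis, against 142 of 2770 called genes not past 1 (5.13%). For the 96 intestine genes, 4 (4.17%) had an adjacent gene past 1 toward the intestine, against 44 of those 2770 (1.59%). Adjacent genes can share GATC fragments, and 95 of the 303 genes (31.4%) overlapped an adjacent gene in the annotation, against 32.1% of called genes not past 1. Genes that do not overlap can share a fragment too, and overlap was not counted for the 53 genes alone. The part of shared fragments was therefore not tested. By chromosome, genes past 1 toward the hypodermis were 13.2% of called genes on chromosome V and 11.2% on X, and 6.65% on chromosome III. The median difference of called genes was 0.20 on X and between -0.15 and -0.07 on the autosomes. Genes enter this median by a call, and X had 245 calls in the hypodermis and 239 in the intestine. Each autosome had more calls in the intestine. Over all genes, called or not, the median was 0.01 on X and between 0.01 and 0.02 on the autosomes.

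The same comparison in wild-type larvae gave 233 of 3055 called genes past 1 toward the hypodermis (7.63%) and 121 toward the intestine (3.96%). The genotypes share no library. Of the 303 genes higher in the baf-1(G12T) hypodermis, 60 were also past 1 in wild type, which is 19.8% of the mutant list and 25.8% of the wild-type list. Of the 96 genes higher in the baf-1(G12T) intestine, 16 were also past 1 in wild type, 16.7% of the mutant list and 13.2% of the wild-type list. The wild-type difference had the same sign for 239 of the 303 genes (78.9%) and for 55 of the 96 (57.3%). Over all 3179 genes called in a mutant tissue, 64.0% had a wild-type difference above 0 and the rest one below 0. Across genes, which are not independent replicates, the correlation of the mutant with the wild-type difference was r = 0.34 over those 3179 genes and r = 0.47 over the 1029 genes with 16 or more fragments.

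Among the genes past 1 in both genotypes, Y40C7B.4 had the largest smaller difference toward the hypodermis, 3.70 in baf-1(G12T) and 2.90 in wild type. It was followed by B0336.12, nspe-1, nlp-33 and Y42G9A.3, of which nspe-1 scored 2.45 in the hypodermis and 0.15 in the intestine of baf-1(G12T) and 2.37 in the hypodermis and -0.08 in the intestine of wild type. Toward the intestine the leading genes were cpr-6 (-1.79 in baf-1(G12T), -2.05 in wild type), vit-6 (-1.54 in baf-1(G12T), -1.62 in wild type), dct-16, lec-6 and the transthyretin-related gene ttr-45 (-1.47 in baf-1(G12T), -1.85 in wild type). The marker asp-1 differed by -1.32 in baf-1(G12T) and -3.14 in wild type, and dpy-13 by 2.77 in baf-1(G12T) and 0.33 in wild type. For lmn-1 the difference was 3.06 in baf-1(G12T) and -0.47 in wild type, where it scored 0.02 in the hypodermis and 0.49 in the intestine. The study, in contrast, reported reduced lmn-1 mRNA in whole baf-1(G12T) worms by quantitative RT-PCR. It also reported less GFP::LMN-1 at the nuclear envelope of hypodermal cells. Those are other measures than a polymerase score. The gene baf-1 itself differed by -0.10 in baf-1(G12T) and -1.87 in wild type, where it scored 0.15 in the hypodermis and 2.02 in the intestine. These differences between the genotypes were not tested.

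**Figure D4:**
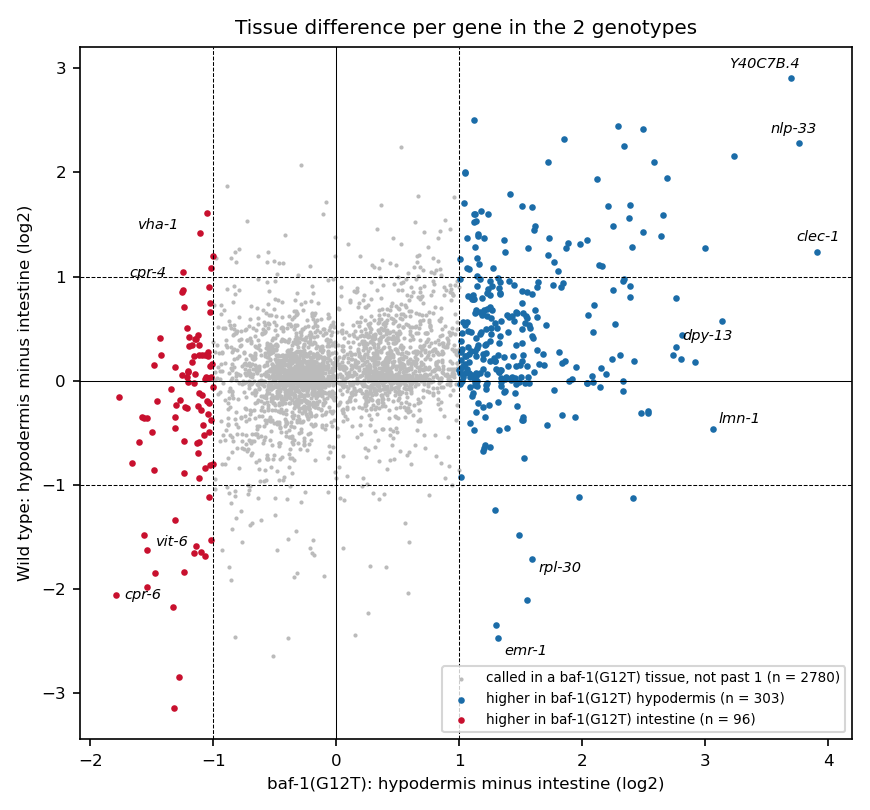
Hypodermis minus intestine score (log2) per gene in baf-1(G12T) (horizontal axis) and in wild type (vertical axis), for the 3179 genes called in a baf-1(G12T) tissue, with dashed lines at a difference of 1. Genes past 1 in the same direction in both genotypes, such as Y40C7B.4 and cpr-6, are 60 toward the hypodermis and 16 toward the intestine, and emr-1 lies past 1 in opposite directions.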

How the data were processed

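RAPID was measured in 8 baf-1(G12T) libraries, 2 per fusion and tissue, from 200 ng DNA and 14 PCR cycles, and 8 wild-type libraries entered as a comparison. The deposited tables, 1 per tissue and genotype, hold for each gene a log2 score, an FDR (a p-value adjusted by the authors' caller) and a number of GATC fragments. The authors mapped reads with the DamID adapter to ce11 (RDamIDSeq), scaled Dam::RPB-6 to GFP::Dam of the same tissue and genotype (damidseq_pipeline) and scored genes (polii.gene.call), each log2 value being relative to that reference. The way replicates were combined was not given in the sources used here. Scores came with no read depth. The study lists more raw reads for the Dam::RPB-6 libraries of the mutant hypodermis than of the mutant intestine. Of reads placed at GATC sites, however, 1 hypodermis library had far fewer than either intestine library and the other far more.

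Tables were joined by gene name in Python 3.11.15 with pandas 2.3.3, and scripts were tested on simulated data. Genes were placed by Ensembl release 115 (19406), RefSeq (540) or not at all (28). Genes were named by rule: markers; the 10 largest differences each way with at least 4 fragments and the 3 largest with fewer; up to 5 called members per list; fixed genes; the 5 largest contrasts between genotypes each way; the 5 leading genes past 1 in both genotypes each way; and the 5 highest in both tissues. Of the others, adjacent genes, those at the threshold, fasn-1 and list members past 1 were chosen after their values were seen. Members and lists were chosen with earlier results of these data known. Alternatives changed the FDR, the difference, the fragments, the score minimum, the scale, the gene class and the motif.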

Additional observations from a re-analysis of the deposited data

Results flagged for a closer look

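The tissue difference lay past 1 in opposite directions in the genotypes for 13 genes, and none of these contrasts was tested. The values given are the baf-1(G12T) difference minus the wild-type difference, each hypodermis minus intestine. The emerin gene emr-1 had 3.79, with scores of 2.38 in the hypodermis and 1.06 in the intestine of baf-1(G12T) and -0.04 in the hypodermis and 2.43 in the intestine of wild type. K11D12.14 (3.65, on 1 fragment), Y82E9BR.3 (3.64), Y37E3.8 (3.09), Y53C12A.6 (2.97) and the high mobility group gene hmg-11 (2.53) also were higher in the hypodermis of baf-1(G12T) and in the intestine of wild type. The ribosomal protein genes rpl-43 (3.54) and rpl-30 (3.30) shared that direction. The opposite held for rpl-29 (-2.66), the V-ATPase gene vha-1 (-2.52), the protease gene cpr-4 (-2.29), C01G10.9 (-2.20) and ubq-2 (-2.09), which encodes ubiquitin fused to a ribosomal protein. Under quantile normalization the baf-1(G12T) differences of emr-1, Y82E9BR.3 and rpl-30 became 0.17, 0.09 and 0.66, no longer past 1. These genes have between 1 and 6 fragments each.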

How the results depend on the processing

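No paired analysis was possible because the tables hold 1 score per gene and group, and for the same reason leaving out a replicate, a replicate block and limma could not be run. With a difference past 0.58 there were 667 genes higher in the hypodermis and 401 in the intestine, and with one past 1.5 there were 120 and 10. At least 8 fragments gave 114 and 44, quantile normalization 187 and 204, and scaling by the SD 146 for the intestine. An FDR under 0.01 left 953 calls in the hypodermis, 1079 in the intestine and 218 in both. Also past 0.58 in wild type were 176 and 70 genes, above 0 in the same direction in wild type 239 and 55, and, for the intestine, 32 after quantile normalization over all groups. GATAAG in place of TGATAA lowered the share of promoters with a match to 16.7% for the hypodermis and 26.6% for the intestine. Under quantile normalization F14E5.8 turned to -0.37 and F21C3.7 to -0.23. Besides these, 9 other single-gene differences past 1 no longer passed under quantile normalization, all of them higher in the hypodermis, and 13 others passed, all higher in the intestine. The causes were not tested. In the 34 other settings of these counts and shares the value stayed within 1.5 times the count given, or within the 95% exact binomial interval of the share.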

Other observations

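Other gene groups gave smaller or mixed tissue differences in baf-1(G12T), described here as values with no test. Of 41 acyl-CoA synthetase and beta-oxidation genes, 6 (14.6%) were called in the hypodermis and 12 (29.3%) in the intestine, both above the shares of all genes. The acyl-CoA synthetase gene acs-2 was past 1, with -0.15 in the hypodermis and 0.93 in the intestine, and the acyl-CoA dehydrogenase gene acdh-1 had 0.24 in the hypodermis and 1.06 in the intestine. The stearoyl-CoA desaturase gene fat-7, in contrast, had 0.86 in the hypodermis and -0.10 in the intestine. Of 74 cytochrome P450 genes, 5 were called in the hypodermis and 1 in the intestine (6.76% and 1.35%, against 7.53% and 10.5% of all genes), with cyp-34A6 at 0.76 in the hypodermis and -0.12 in the intestine. The glutathione transferase gene gst-12 had 2.22 in the hypodermis and 0.28 in the intestine, and gst-42 had -0.71 in the hypodermis and 0.32 in the intestine.

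The lysozyme genes lys-1 and lys-2 differed in direction. The first had -0.31 in the hypodermis and 0.93 in the intestine, and the second had 0.86 in the hypodermis and -0.54 in the intestine. Of 84 hedgehog-related and patched-related genes, which act in the epidermis, 11 (13.1%) were called in the hypodermis and 4 (4.76%) in the intestine. The shares of all genes were 7.53% and 10.5%. The largest difference was that of grl-16, with 0.87 in the hypodermis and -0.25 in the intestine. Of 7 heat-inducible chaperone genes, 0 were called in the hypodermis and 2 (28.6%) in the intestine. The called genes were hsp-16.2 (0.24 in the hypodermis, 0.46 in the intestine) and hsp-70 (-0.03 in the hypodermis, 0.40 in the intestine). Both hsp-16.1 and hsp-16.11 had scores of 0.00 in both tissues. The gene hsp-16.2 lies beside hsp-16.41, whose promoter is in each Dam transgene, and the part of the transgene in its score was not tested. The copper chaperone gene cuc-1 had 2.71 in the hypodermis and 0.17 in the intestine over 2 fragments.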
